A study of Mus musculus with 10 samples.

Results

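Middle and late pachytene (mP/lP) spermatocytes of the mouse testis were described here from simultaneous scRNA-seq and scATAC-seq of single nuclei. The cells were those that the authors had named pSC from marker genes, 5055 of the 45250 nuclei with RNA data. In the scATAC-seq data, 4523 nuclei carried this name from their own RNA, and the authors' separate naming by scATAC-seq gave it to 91766 of 343866 nuclei. Nuclei came from whole testes of wild-type C57BL/6J mice at 11, 17 and 25 days postpartum (dpp) and, at an age of 8 weeks, of Cre/+ and of Nfya-CKO mice. Both adult groups carried Stra8-Cre, a knock-in at the Stra8 gene that acts in pre-meiotic germ cells, and Nfya-CKO mice were in addition Nfya fl/fl, so that Cre removes part of Nfya in the germ line. Each condition was 1 library per assay, and the number of mice in a library is not given in the sources used here. Differences between libraries therefore have no replicate check. RNA levels are given as UMIs per 10000 UMIs, 1 value per population pooled over the libraries, and intervals beside shares of cells cover only counting error.

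Pachytene is the long stage of meiotic prophase in which homologous chromosomes are joined along their length by the synaptonemal complex and crossovers mature. From its middle the nucleus transcribes actively. The transcription factor A-MYB, the product of Mybl1, drives genes needed for the meiotic divisions together with long precursor transcripts of pachytene piRNAs, small RNAs that are bound by PIWI proteins. The X and Y chromosomes stay mostly unpaired, are gathered in the sex body and are silenced, a process named meiotic sex chromosome inactivation.

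Sharing of barcodes between libraries was counted first. Of 39674 scRNA-seq barcodes, 5030 (12.7%) occurred in more than 1 library, compared with 0.286% of scATAC-seq barcodes. Most of the overlap that touches mP/lP spermatocytes lay between the Cre/+ and Nfya-CKO libraries. Of the 1411 mP/lP barcodes of the Cre/+ library, 1110 (78.7%) also occurred in the library labelled Nfya-CKO, where all 1110 were named somatic cells. These barcodes had a median of 16778.5 UMIs in the Cre/+ library and 1201 in the library labelled Nfya-CKO. Among all other Cre/+ barcodes, 25.5% were shared with that library. Sharing with any other library touched 2.15% of mP/lP cells at 25 dpp and 14 of 63 at 17 dpp. The cause of the overlap was not tested, and shares and UMI medians by library are also given without the shared barcodes.

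By scRNA-seq, mP/lP spermatocytes were present from 17 dpp. At 11 dpp, 0 of 6273 scRNA-seq cells had the name (exact Clopper-Pearson 95% interval 0 to 0.0588%). At 17 dpp 63 of 3746 had it (1.68%, 1.29 to 2.15%) and at 25 dpp 3575 of 18039 (19.8%, 19.2 to 20.4%). Without the shared barcodes the shares were 1.83% at 17 dpp and 20.5% at 25 dpp. In the Cre/+ library they were 1411 of 11991 cells (11.8%, 11.2 to 12.4%), and 3.69% without the shared barcodes. Nfya RNA was at 1.11 in spermatogonia labelled Nfya-CKO and at 0.456 in control undifferentiated spermatogonia. Cre removes only part of this gene and the value counts all of it, so that the level does not check the label, and the library is called by its label. None of the 5152 cells labelled Nfya-CKO had the name (0 of 5152, exact interval 0 to 0.0716%). By the scATAC-seq naming 0.150% of nuclei at 11 dpp, 4.31% at 17 dpp and 38.2% at 25 dpp had the name, as did 65.1% of Cre/+ nuclei. It was given to 0.235% of the nuclei labelled Nfya-CKO. Both namings put the stage at low shares at 17 dpp and at high shares at 25 dpp, and they ordered 25 dpp and Cre/+ in opposite ways. The scATAC-seq naming had no diplotene, preleptotene, differentiating or elongating class. Its mP/lP nuclei had a median of 2636 fragments, whereas the nuclei named mP/lP from RNA had 8905.

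The names from both assays were compared in nuclei that had both. Of 4523 nuclei named mP/lP from RNA, 3292 (72.8%, 71.5 to 74.1%) were also mP/lP by scATAC-seq, and 67.3% without shared barcodes. The share was 88.2% in Cre/+, 66.4% at 25 dpp and 75.9% at 17 dpp. The rest were mainly named as earlier spermatocytes, with 610 (13.5%) called leptotene, zygotene and early pachytene (L/Z/eP) and 373 (8.25%) called early leptotene, leptotene and zygotene (eL/L/Z). In the other direction, of 7459 nuclei named mP/lP by scATAC-seq that had a name from RNA, 44.1% were mP/lP, 17.8% diplotene (D), 17.4% L/Z/eP and 14.5% round spermatids (RS). In these nuclei the scATAC-seq name was thus the broader one and took in both earlier and later stages. It has no D class, and the 7459 were a part of the 91766 nuclei with this scATAC-seq name. For comparison, the share with the same name was 39.6% for eL/L/Z, 57.6% for L/Z/eP, 65.3% for RS, 74.6% for undifferentiated spermatogonia (undiff. SpG) and 98.9% for Sertoli cells.

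The name was checked against its 4 markers, which belong to genes known from pachytene spermatocytes. Piwil1 encodes the PIWI protein MIWI, which binds pachytene piRNAs. Its level was 0.712 in undiff. SpG, 1.76 in differentiating spermatogonia (diff. SpG), 0.282 in preleptotene (pL), 1.64 in eL/L/Z, 4.85 in L/Z/eP, 11.4 in mP/lP, 5.60 in D, 2.56 in RS, 2.20 in elongating spermatids (ES) and 0.0771 in Sertoli cells. Tdrd5, a Tudor domain protein needed for piRNA biogenesis, was at 2.55 in mP/lP, 1.26 in L/Z/eP, 1.42 in D and 0.105 in Sertoli cells. Both were highest in mP/lP. Mybl1 was nearly as high before this stage, at 1.42 in L/Z/eP against 1.51 in mP/lP, with 1.19 in D and 0.583 in RS. Pou5f2, which encodes a POU domain factor, was low throughout, at 0.250 in mP/lP, 0.210 in L/Z/eP and 0.275 in D. Of the 4 markers, 3 were highest in mP/lP, and Pou5f2 was slightly higher in D. Markers of this kind served the authors to name the cells, so that these levels describe the population and test nothing.

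**Figure D1:**
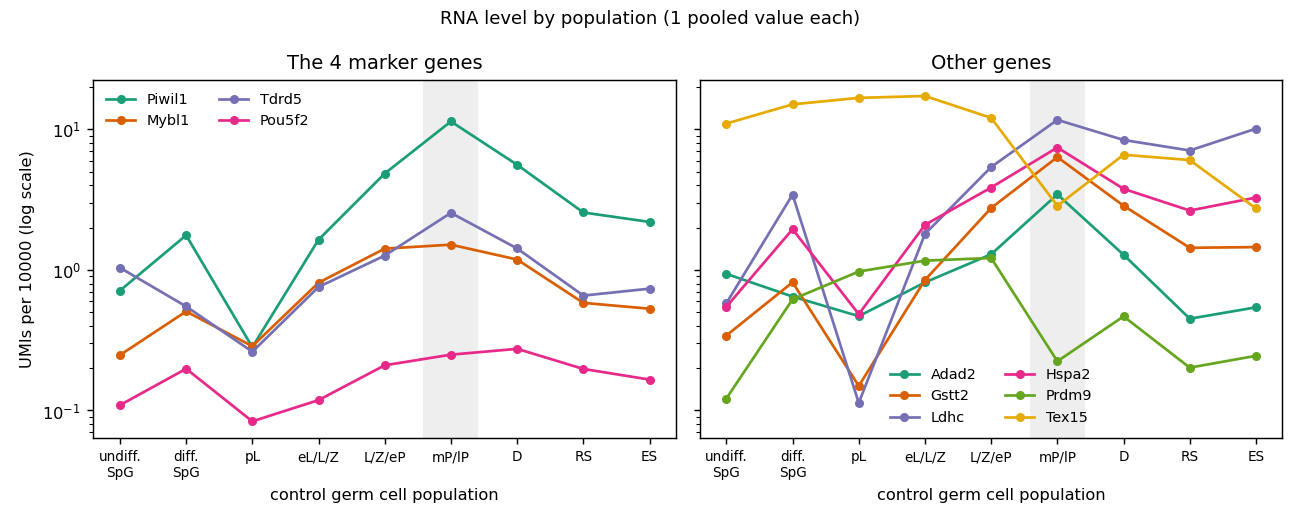
RNA level in UMIs per 10000 (log axis) in 9 control germ cell populations, in order of differentiation, for the 4 markers (left) and 6 other genes (right), with mP/lP shaded. Each point is 1 pooled value; Piwil1 reaches 11.4 and Adad2 3.45 in mP/lP, whereas Tex15 is at 2.86 there and at 12.1 in L/Z/eP.

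Promoters of 7 genes are printed for the sequence upstream of the markers and of the named genes that were at least 2-fold highest in mP/lP. They are Piwil1, which is both, Tdrd5 and Pou5f2 of the other markers, and Adad2, Gm21221, 1700008K24Rik and Cers3, whose levels are given below. Mybl1 and Gstt2 were not matched. Each run is the 250 bases before the annotated start, 5′ to 3′ on the strand of the gene, from RefSeq for GRCm38.p6. Capitals mark AACNG on either strand, the core letters bound by MYB family proteins, and the longer CCAACNG, which contains AACNG and shares CCAA with the CCAAT box bound by NF-Y. The positions are chr5:128735996-128736245 (plus strand) for Piwil1, chr1:156303349-156303598 (minus) for Tdrd5, chr13:78024652-78024901 (plus) for Pou5f2, chr8:119612463-119612712 (plus) for Adad2, chr5:149811752-149812001 (minus) for Gm21221, chr17:49113534-49113783 (minus) for 1700008K24Rik and chr7:66743254-66743503 (plus) for Cers3.
Piwil1: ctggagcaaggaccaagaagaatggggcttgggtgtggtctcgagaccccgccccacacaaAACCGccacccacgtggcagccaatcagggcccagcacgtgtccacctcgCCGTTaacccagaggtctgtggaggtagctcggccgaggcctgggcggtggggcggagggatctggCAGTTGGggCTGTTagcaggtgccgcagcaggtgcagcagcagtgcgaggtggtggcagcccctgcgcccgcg
Tdrd5: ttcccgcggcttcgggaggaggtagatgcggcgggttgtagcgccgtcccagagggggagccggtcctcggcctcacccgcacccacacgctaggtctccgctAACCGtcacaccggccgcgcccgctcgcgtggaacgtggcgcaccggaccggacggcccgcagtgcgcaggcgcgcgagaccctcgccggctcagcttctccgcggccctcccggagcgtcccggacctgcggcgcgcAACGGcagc
Pou5f2: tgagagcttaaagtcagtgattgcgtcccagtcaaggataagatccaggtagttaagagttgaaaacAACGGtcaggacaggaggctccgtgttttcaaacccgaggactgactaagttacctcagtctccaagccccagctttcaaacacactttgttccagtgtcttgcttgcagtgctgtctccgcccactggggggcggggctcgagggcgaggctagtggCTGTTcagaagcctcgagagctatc
Adad2: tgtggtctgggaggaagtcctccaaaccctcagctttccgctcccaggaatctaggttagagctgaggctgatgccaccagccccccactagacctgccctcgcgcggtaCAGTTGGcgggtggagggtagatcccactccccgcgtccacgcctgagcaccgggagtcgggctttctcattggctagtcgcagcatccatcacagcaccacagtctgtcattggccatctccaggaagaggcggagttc
Gm21221: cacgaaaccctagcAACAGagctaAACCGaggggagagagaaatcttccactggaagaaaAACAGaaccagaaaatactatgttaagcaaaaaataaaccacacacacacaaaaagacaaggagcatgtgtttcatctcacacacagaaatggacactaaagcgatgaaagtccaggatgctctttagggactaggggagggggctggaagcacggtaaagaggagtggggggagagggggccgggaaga
1700008K24Rik: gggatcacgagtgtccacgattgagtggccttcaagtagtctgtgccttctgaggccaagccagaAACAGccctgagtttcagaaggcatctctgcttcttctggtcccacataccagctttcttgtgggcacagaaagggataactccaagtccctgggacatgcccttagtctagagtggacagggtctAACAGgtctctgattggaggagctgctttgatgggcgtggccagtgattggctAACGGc
Cers3: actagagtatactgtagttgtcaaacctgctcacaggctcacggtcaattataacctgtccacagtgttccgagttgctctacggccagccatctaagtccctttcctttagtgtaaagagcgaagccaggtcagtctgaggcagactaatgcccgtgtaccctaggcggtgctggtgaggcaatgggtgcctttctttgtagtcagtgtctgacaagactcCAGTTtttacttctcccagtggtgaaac

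Piwil1 held 4 matches to AACNG, 1 of them within the longer form, CAGTTGG read on the reverse strand from 73 to 67 bases before the start. Adad2 held CAGTTGG from 140 to 134 bases before the start. The other 5 promoters had between 1 and 3 matches to AACNG and none to CCAACNG in this window. CCAAT was found on either strand in Piwil1 (1 match), Adad2 (2) and 1700008K24Rik (2). In all 11055 promoters of genes tested, from 250 bases before to 50 after the start, AACNG was found on either strand in 78.8%, CCAACNG in 11.8% and CCAAT in 39.2%. A match describes letters, not a bound site. Only 71.3% of the 1665 genes highest in mP/lP had a promoter in the table, as did 74.1% of all genes tested. With this many missing, no comparison of their motif share with that of other genes is drawn.

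mP/lP nuclei had more UMIs than those of the neighbouring stages. The median was 6969 UMIs (quartiles 4698.5 to 11159.5) and 2751 genes per cell over all libraries, where undiff. SpG (9290), pL (8161) and Sertoli cells (10904) had higher medians. Within the 25 dpp library the median was 5850 UMIs, compared with 1644 in L/Z/eP (3.56 times), 4431.5 in D (1.32 times), 2379 in RS and 5019 in undiff. SpG. Within Cre/+ it was 13985, against 1239 in L/Z/eP and 3128 in D, and within 17 dpp 8061, against 1765.5 in L/Z/eP and 3956.5 in D. In each of the 3 libraries the median was thus higher in mP/lP than in the stages on either side. Without barcodes shared between libraries, the mP/lP median was 5920 UMIs in Cre/+, 6103 at 17 dpp and 5837 at 25 dpp. At 17 dpp, undiff. SpG (13833.5), pL (9473) and Sertoli cells (16182.5) had more UMIs than mP/lP. Among cells with 2500 to 3500 UMIs, pooled over libraries, the median number of genes was 1515 in mP/lP, 1442 in L/Z/eP, 1465 in D and 1467 in RS, and it was higher than in mP/lP in diff. SpG (1631) and ES (2180).

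**Figure D2:**
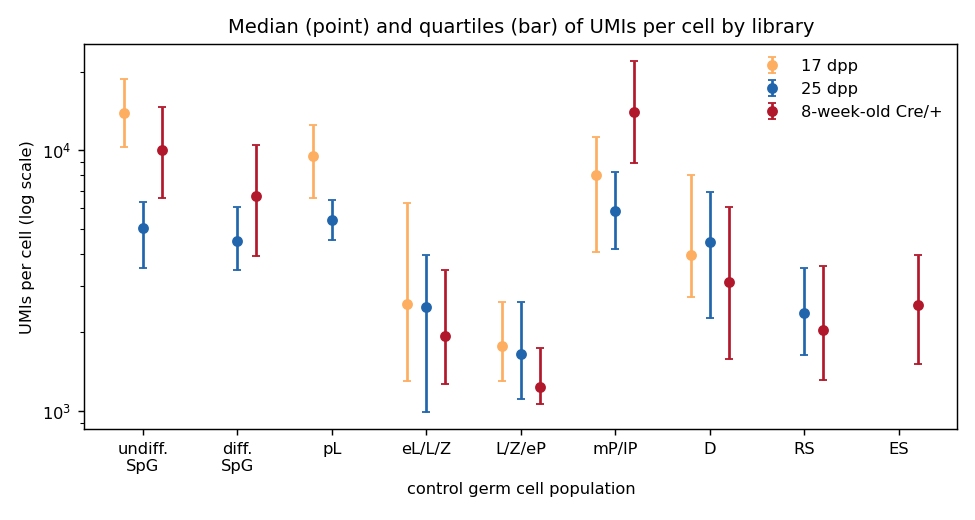
Median (point) and quartiles (bar) of UMIs per cell (log axis) in 9 control germ cell populations, by library. In each library the mP/lP median (8061 at 17 dpp, 5850 at 25 dpp, 13985 in Cre/+) lies above those of L/Z/eP and D.

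The authors' clustering split the cells by library. Cluster 3 held 3720 of the cells, 3560 of them from 25 dpp, with a median of 5840 UMIs, and cluster 15 held 1335, of which 1317 were from Cre/+, with 14550 UMIs. Median mitochondrial UMIs were 0.490% in cluster 3 and 1.15% in cluster 15. Age, genotype, library and the shared barcodes cannot be told apart in this split. The expression matrix has 1 pooled column for both clusters, so levels below cannot be given by library, nor without the 1201 of 5049 mP/lP cells (23.8%) whose barcode was shared. Of the mP/lP cells 27.9% came from Cre/+, compared with 2.6% of L/Z/eP and 52.9% of D cells, and the part of this composition in the differences below was not tested. Of the 4145 D cells, 51 came from 11 dpp, 98 from 17 dpp and 4 from the library labelled Nfya-CKO. By the study's account, 11 dpp reached no later than eL/L/Z and 17 dpp L/Z/eP, so that the names of these D cells are uncertain.

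The transcriptome of mP/lP lay close to that of the neighbouring stages. Over 14912 genes with a mean of at least 0.05, Spearman's rho across genes was 0.940 with L/Z/eP, 0.937 with D, 0.798 with diff. SpG, 0.765 with eL/L/Z, 0.752 with ES, 0.696 with RS, 0.620 with undiff. SpG, 0.612 with pL and 0.465 with Sertoli cells, so that beyond L/Z/eP and D the order was not that of differentiation. Genes are not independent replicates, and these values are a description. 1665 genes (11.2%) were highest in mP/lP among the 10 control populations, but only 16 (0.107%) by at least 2-fold over each other population on the scale of level + 0.1, and 0 by at least 4-fold. The count of 16 became 6 with a pseudocount of 0.5, 27 with 0.01 and 34 with median-ratio scaling. The same 2-fold count was 873 in RS, 682 in Sertoli cells, 213 in undiff. SpG, 173 in ES, 9 in D and 1 in L/Z/eP. Most genes that were highest in mP/lP therefore stood above the next population by less than 2-fold. Piwil1 lay just inside the 2-fold limit, at 2.01, and the piRNA precursor 10-qC1-117 just outside, at 1.99.

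Of these 16 rows, 10 were piRNA precursor loci and 6 were named genes. Adad2, which encodes an RNA-binding protein of germ cell granules needed for male fertility, had the largest margin, 2.55-fold. Its level was 0.938 in undiff. SpG, 0.646 in diff. SpG, 0.469 in pL, 0.815 in eL/L/Z, 1.29 in L/Z/eP, 3.45 in mP/lP, 1.28 in D, 0.450 in RS and 0.542 in ES. Its mP/lP value stood above all the others. Gstt2, a glutathione transferase, was at 6.35 in mP/lP, 2.76 in L/Z/eP and 2.86 in D. Cers3, a ceramide synthase that makes very long chain ceramides, was at 3.74, 1.69 and 1.79 in the same order. The predicted genes Gm21221 and 1700008K24Rik reached 4.37 and 10.6. 1700008K24Rik and the precursor row 17-qC-935 had the same values to 3 digits and may share reads. Both are counted among the 16 rows but may not be separate transcripts.

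The piRNA precursors were 10 of the 16 rows that were at least 2-fold highest in mP/lP. The matrix holds 100 rows named by chromosome band, which is how the loci of pachytene piRNAs are named. In mP/lP their levels added up to 437 per 10000, or 4.37% of UMIs, compared with 19.8 in undiff. SpG, 60.2 in diff. SpG, 10.8 in pL, 57.8 in eL/L/Z, 215 in L/Z/eP, 261 in D, 110 in RS and 102 in ES. The sum was 5.17 in Sertoli cells and 54.7 in somatic cells of the kind mostly from the library labelled Nfya-CKO. Of 99 rows that passed the filter on level, 95 were highest in mP/lP, where 11.2% of all genes were. 49 were at least 2-fold above L/Z/eP, as were 1.41% of all genes, and 13 above D, as were 0.188%. The median log2 ratio was 0.99 to L/Z/eP and 0.59 to D, where the median gene was at -0.09 in both. The loci thus differed in level by a wide range but nearly all peaked at 1 stage. The study describes pachytene piRNA genes as transcribed at the pachytene stage, so that a peak in mP/lP describes these rows and tests nothing.

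Levels in mP/lP ran from 0.116 to 31.3, with a median of 2.51, and the 10 highest rows held 37.6% of the sum. The highest, 10-qB4-6488, was at 3.10 in diff. SpG, 0.274 in pL, 14.8 in L/Z/eP, 31.3 in mP/lP and 17.0 in D. 2-qF1-2536 was at 3.01, 0.20, 10.3, 23.1 and 16.0, and 7-qD1-19431 at 1.58, 0.0621, 6.47, 15.2 and 9.42 in the same stages. Each followed the same course, with the highest value in mP/lP and a lower one in D. Some rows cannot be counted as separate transcripts, since 3 rows had values identical to a named gene. 12-qE-23911 (14.3) and 12-qE-7089 (14.2) had nearly the same level in mP/lP but differed in pL (0.123 and 0.0938). Whether they share reads was not tested. A second set of 115 rows, whose names start with pi-, was highest in mP/lP less uniformly. These added up to 123 in mP/lP and 155 in undiff. SpG, and 24 of 114 (21.1%) were highest in mP/lP, where 11.2% of all genes were.

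Chromatin at the precursor loci was more accessible in mP/lP than in earlier stages, while its order against D and RS depended on the scale. The scATAC-seq values are given per 1000000 over the nuclear genes of a population. Their populations include diff. SpG, pL, D and ES, which only the naming from RNA has. By that naming 4523 nuclei with scATAC-seq data were mP/lP and 124 were ES. The study's methods describe promoter coverage around the start site for merged cells, but in other units than those of the deposited values, and which region these values count per gene is not given in the sources used here. The median of the 100 loci was 5.85 in pL, 11.3 in eL/L/Z, 32.0 in L/Z/eP, 63.6 in mP/lP, 55.6 in D, 50.5 in RS and 34.5 in ES, whereas the median over all genes moved only from 33.4 in pL to 27.2 in mP/lP. 98 loci were higher in mP/lP than in pL, with a median ratio of 6.62, and 94 were higher than in L/Z/eP. 61 loci were highest in mP/lP of the germ cell populations, and 80 were higher than in D. For all genes tested, the median log2 ratio of mP/lP was 0.06 to pL, -0.01 to L/Z/eP and -0.02 to D. The shares of all genes with these orders were not counted. On a scale that keeps mitochondrial genes, the median was 11.6 in L/Z/eP, 25.2 in mP/lP, 28.6 in D and 30.2 in RS, with 2 loci highest in mP/lP, 97 higher than in L/Z/eP and 10 higher than in D. Locus 7-qD1-19431 went from 1.72 in pL to 66.6 in mP/lP. The locus with most RNA was an exception, since 10-qB4-6488 was already at 137 in pL and at 165 in mP/lP.

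**Figure D3:**
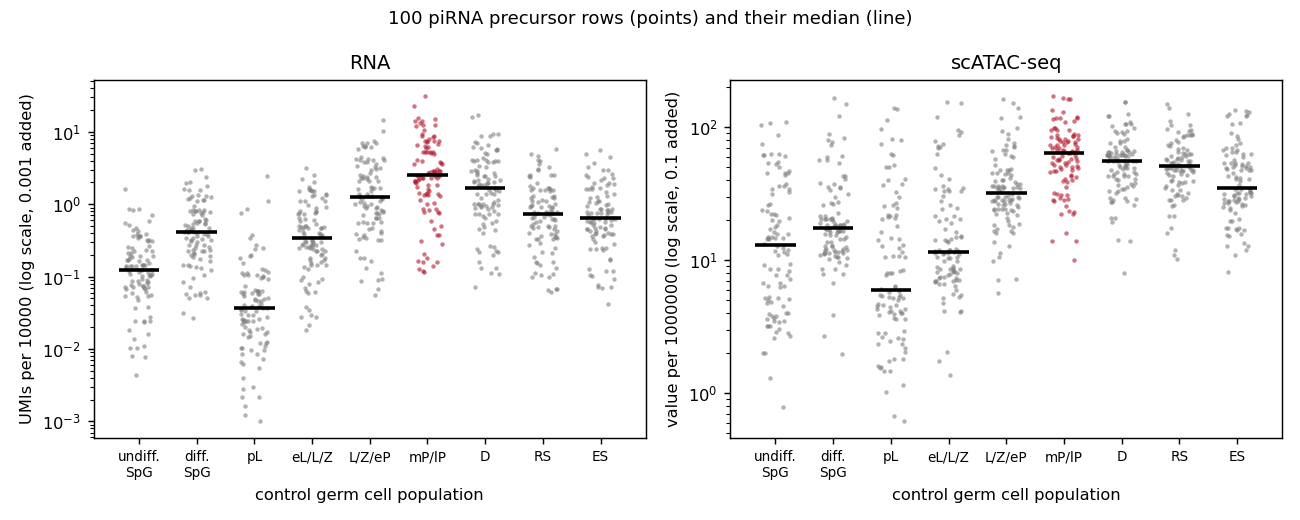
The 100 piRNA precursor loci (points) and their median (line) in 9 control germ cell populations, as RNA in UMIs per 10000 (left, log axis) and as scATAC-seq value per 1000000 (right, log axis), with mP/lP in red. Median RNA was 2.51 and median scATAC-seq value 63.6 in mP/lP; on this scale, without mitochondrial genes, D follows at 55.6 and RS at 50.5, whereas with them mP/lP (25.2) is below D (28.6) and RS (30.2).

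Accessibility was higher in mP/lP than in L/Z/eP for genes with a clear RNA margin and differed less for genes highest by any margin. The 16 genes at least 2-fold higher in mP/lP had a median scATAC-seq value of 68.5 in mP/lP, 35.6 in L/Z/eP, 61.2 in D and 5.71 in pL. With mitochondrial genes in the scale it was 27.2 in mP/lP, 12.9 in L/Z/eP and 31.4 in D, so that the order of mP/lP and D turned. For the 6 of them that were not precursor loci it was 47.6 in mP/lP and 27.5 in L/Z/eP. These 6 are not independent of the loci. In mP/lP 1700008K24Rik was at 73.1 and locus 17-qC-935 at 73.5, and Gstt2 at 110.1 and locus 10-qC1-12816 at 110.9. The 157 genes highest by at least 1.5-fold were at 64.9 in mP/lP and 36.6 in L/Z/eP, and the 110 of them that were not precursor loci at 56.9 and 38.6. The 1665 genes highest in mP/lP by any margin were at 62.7 and 54.4, and all genes tested at 45.8 and 45.5. Piwil1 had low scATAC-seq values, 6.09 in L/Z/eP against 6.52 in mP/lP, where its RNA was more than 2-fold higher. Its values in the germ cell populations ran from 5.56 to 9.50, close to the filter of 5. The region they count is not known, so a change at the Piwil1 promoter cannot be judged from them.

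Proteins of the piRNA pathway were compared as a list of 27 genes. 15 were highest in mP/lP, where 11.2% of all genes were, and 24 were higher than in L/Z/eP, as were 40.8% of all genes, with a median log2 ratio of 0.34. 22 were higher than in D, as were 40.5% of all genes. The list holds the markers Piwil1 and Tdrd5, and of the 25 other genes 13 were highest in mP/lP, 22 higher than in L/Z/eP and 20 higher than in D. Among the PIWI proteins, Piwil2 (MILI) was at 4.98 in mP/lP, 3.45 in L/Z/eP and 3.01 in D, and Piwil4 (MIWI2), which acts in fetal germ cells, was near 0, at 0.0101. Tudor domain genes of the germ granule varied, with Tdrd1 at 5.01 in mP/lP and 2.49 in L/Z/eP and Tdrd6 at 2.75 and 1.10, but at 2.87 in D. Tdrd3 was at 0.517 in both L/Z/eP and mP/lP, and Tdrd7, at 1.47 against 1.23 in L/Z/eP, was highest in RS. Ddx4, the germ cell helicase, was at 5.91 and 4.34, and Pld6, the mitochondrial nuclease of piRNA biogenesis, at 1.65 and 0.802. At least 2-fold above L/Z/eP were 3 genes, Piwil1, Tdrd6 and Adad2, where 1.41% of all genes were. The 3 genes below L/Z/eP were Piwil4, Mov10l1, a helicase of piRNA biogenesis (3.85 in L/Z/eP against 3.39 in mP/lP), and Tex15, the only one at least 2-fold lower. Tex15, needed for silencing of transposons by the fetal piRNA pathway and for meiotic recombination, was at 16.8 in pL, 17.3 in eL/L/Z, 12.1 in L/Z/eP, 2.86 in mP/lP, 6.60 in D and 6.05 in RS, so that mP/lP was lower than the stage on either side.

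Some genes of early prophase were lower in mP/lP than in L/Z/eP. Of 20 genes of break formation and strand exchange, 6 were at least 2-fold lower than in L/Z/eP, as were 3.62% of all genes, and 0 were 2-fold higher, with a median log2 ratio of -0.41. 5 were higher by some margin, where 40.8% of all genes were, and 3 of these, Spo11, Hsf2bp and Psmc3ip, were highest in mP/lP, where 11.2% of all genes were. Prdm9, the histone methyltransferase that sets the sites of breaks, was at 0.974 in pL, 1.16 in eL/L/Z, 1.22 in L/Z/eP, 0.224 in mP/lP and 0.467 in D. Dmc1, the meiotic recombinase, was at 1.88 in L/Z/eP, 0.508 in mP/lP and 0.998 in D. Brca2, which loads recombinases, was at 5.18 in L/Z/eP against 2.11 in mP/lP. Spo11, which makes the breaks, went the other way, at 0.715 and 0.999. Of 14 genes of crossover formation, 5 were above L/Z/eP, where 40.8% of all genes were, and 2 were at least 2-fold lower (3.62%). Their median log2 ratio was -0.39, and 4 were highest in mP/lP (11.2% of all genes). Msh5, a MutS protein that stabilises early recombination intermediates, was at 1.44 in L/Z/eP against 0.646 in mP/lP. Factors of later crossover sites were higher in mP/lP, with Cntd1 at 1.64 and 3.29 and Mlh3, the MutL endonuclease subunit, at 0.985 and 1.68. Ccnb1ip1 (HEI10) was at 0.371 and 0.538.

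Genes of the synaptonemal complex and its cohesins ranged widely in level, from Rad21l at 0.0343 in mP/lP to Sycp2 at 18.1. Sycp1, the transverse filament protein, was at 25.3 in L/Z/eP, 16.6 in mP/lP and 13.0 in D. Sycp2, an axis protein, was at 20.2, 18.1 and 14.8, and Sycp3, its partner, at 2.81, 3.82 and 2.73. Sycp3, Syce1 and Tex12 were the 3 of 15 genes that were highest in mP/lP, where 11.2% of all genes were. The same 3 were the only ones above L/Z/eP, where 40.8% of all genes were. The median log2 ratio of the list was -0.16 to L/Z/eP and 0.28 to D. Genes that attach telomeres to the nuclear envelope had a median of 0.20 to L/Z/eP. Of 8 tested, 5 were above L/Z/eP (40.8% of all genes) and 3 were highest in mP/lP (11.2%). Majin at 2.28 and Ccdc155 (KASH5) at 2.29 in mP/lP were both highest there.

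Transcription factors and cofactors known from this stage differed from L/Z/eP by small margins. Of 22 genes, 7 were highest in mP/lP, where 11.2% of all genes were, 0 were 2-fold above L/Z/eP (1.41% of all genes) and 2 were 2-fold below it (3.62%). Of the 20 without the markers Mybl1 and Pou5f2, 6 were highest in mP/lP. Tcfl5, a factor needed for pachytene progression, was at 1.51 in L/Z/eP, 2.64 in mP/lP and 1.80 in D. Rfx2, a factor of spermatid genes, was at 1.79, 3.13 and 2.75. Kctd19, a cofactor of ZFP541, was at 2.41, 4.49 and 3.29, and Brdt, the testis bromodomain protein, at 4.26, 5.07 and 3.90. Both genes that were 2-fold lower are on sex chromosomes, Taf7l on X (1.46 in L/Z/eP against 0.451 in mP/lP) and Zfy2 on Y (0.696 and 0.220). Nfya, the gene deleted in the Nfya-CKO mice, was at 0.392 in L/Z/eP against 0.601 in mP/lP.

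**Figure D4:**
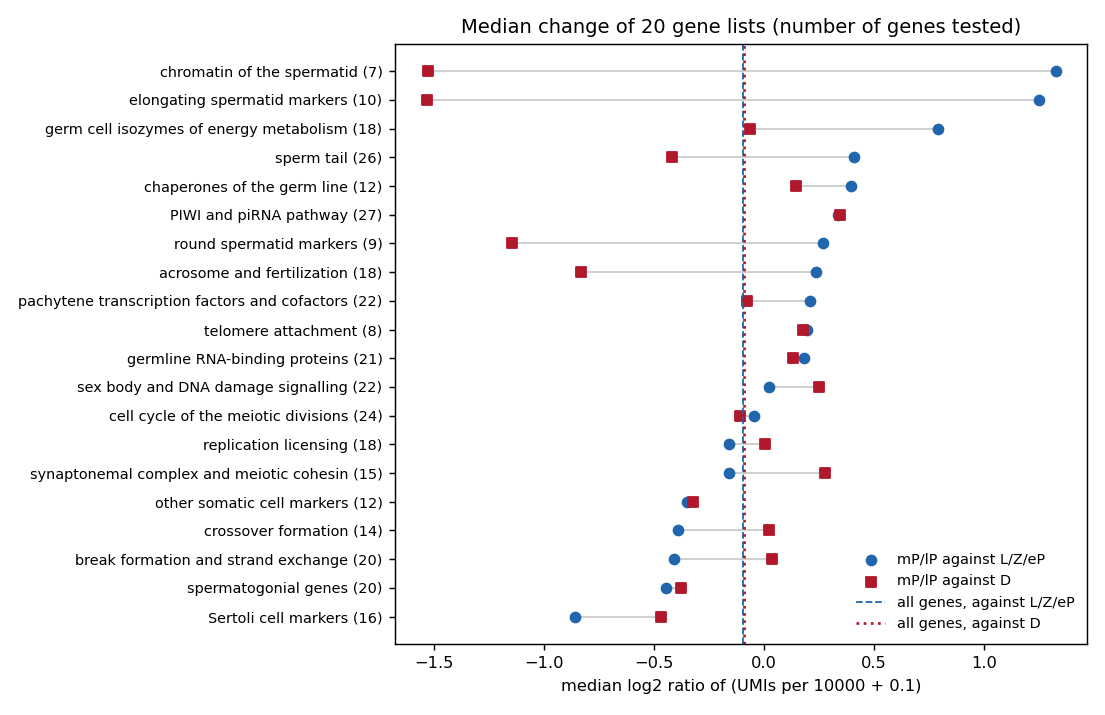
Median log2 ratio of (UMIs per 10000 + 0.1) of mP/lP to L/Z/eP (blue circles) and to D (red squares) for 20 gene lists, with the number of genes tested in each; dashed and dotted lines mark the median of all genes, -0.09 in both. Isozymes of energy metabolism have a median of 0.79 to L/Z/eP, and Sertoli cell markers one of -0.86.

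Most germ cell forms of metabolic enzymes and chaperones had higher levels in mP/lP than in L/Z/eP. Of 18 isozymes, 17 were higher, as were 40.8% of all genes, 6 of them by at least 2-fold (1.41% of all genes), and 7 were highest in mP/lP (11.2%). Their median log2 ratio was 0.79. Of 12 chaperones, 9 were higher, 0 of them by 2-fold. Ldhc, the germ cell lactate dehydrogenase, was at 0.113 in pL, 1.80 in eL/L/Z, 5.40 in L/Z/eP, 11.7 in mP/lP, 8.41 in D, 7.07 in RS and 10.1 in ES. The glucose transporter gene Slc2a3 was at 5.41 in L/Z/eP against 11.1 in mP/lP. Cox8c and Cox6b2, germ cell subunits of cytochrome c oxidase, were at 6.48 and 3.94 in mP/lP and at 2.78 and 1.72 in L/Z/eP. Isozymes of late germ cells were low at this stage and higher in D, with Gapdhs at 0.419 in mP/lP and 1.55 in D and Pgk2 at 0.357 and 1.15. Hspa2, the HSP70 chaperone of spermatocytes needed for the meiotic division, was at 3.86 in L/Z/eP, 7.43 in mP/lP and 3.77 in D, and Clgn (calmegin), an endoplasmic reticulum chaperone, at 4.92, 9.12 and 5.96. Among RNA-binding proteins, Ybx2 (MSY2), which stores mRNA in germ cells, had the highest level of all genes in mP/lP, at 35.3, and Ybx3 was at 17.6, with 7.42 in L/Z/eP.

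Genes of the haploid stages stood between their neighbours. The sperm tail list had a median log2 ratio of 0.41 to L/Z/eP and -0.42 to D, with 23 of 26 genes above L/Z/eP, as were 40.8% of all genes. The acrosome list had medians of 0.24 and -0.83. In the sperm tail list 5 of 26 genes peaked in mP/lP, and in the acrosome list 2 of 18, where 11.2% of all genes did. They included Odf4, a protein of the outer dense fibres, at 2.32 in mP/lP and 2.06 in D. Dnah8, an axonemal dynein, was at 9.72 and 8.73, and Adam2, a sperm surface protein, at 8.26 and 5.39. Markers of elongating spermatids had medians of 1.25 and -1.53. Prm1, a protamine, was at 0.135 in L/Z/eP, 1.13 in mP/lP and 4.11 in D, but also at 3.94 in diff. SpG, which should lack it, and at 0.0053 in pL. diff. SpG cells came to 84.5% from the Cre/+ library and pL cells to 0.341%. A level of Prm1, Tnp2 (1.38 in mP/lP, 3.21 in diff. SpG), Asxl3, Nkain2 or Chl1 in mP/lP was below that of diff. SpG, as was that of Pgk2 (0.803 in diff. SpG), and the part of free RNA in these levels was not tested.

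Genes of spermatogonia and somatic cells were at low levels. Stra8 was at 4.86 in pL, 0.964 in L/Z/eP against 0.272 in mP/lP, and Zbtb16 at 8.74 in undiff. SpG and 0.144 in mP/lP. Id4, known from spermatogonial stem cells, was highest in mP/lP at 1.57, with 0.682 in undiff. SpG. The 17 Sertoli cell markers summed to 5.29 in mP/lP, 11.8 in L/Z/eP, 8.95 in D, 6.83 in RS and 132.5 in Sertoli cells, and 0 of 16 tested were higher in mP/lP than in L/Z/eP, where 40.8% of all genes were. Sox9 was at 0.285 in mP/lP and 10.7 in Sertoli cells. The 24 markers of other somatic cells summed to 0.820 in mP/lP and 1.49 in L/Z/eP. The part of depth in these sums was not tested.

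Across all 14912 genes, 210 (1.41%) were at least 2-fold higher in mP/lP than in L/Z/eP and 540 (3.62%) lower. This split depends on scaling. With median-ratio scaling, which moved the median log2 ratio of all genes by 0.13 to 0.04, 473 were higher and 290 lower. It also depends on low genes, since a pseudocount of 0.5 left 60 higher and 92 lower and one of 0.01 gave 501 and 1758. Of the 210 higher genes, 49 were piRNA precursor loci and 134 were highest in mP/lP, compared with 99 and 1665 of all 14912. Of the 540 lower genes, 126 were X-linked, compared with 496 of all 14912. Against D, 28 genes (0.188%) were higher and 750 (5.03%) lower, of which 701 were highest in RS or ES. Of all 14912 genes, 2715 were highest in RS and 1290 in ES. Only 26 genes were 2-fold lower than both neighbours and 18 higher than both.

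The largest differences were described by single genes. The 4 largest ratios to L/Z/eP, those of Asxl3, Prm1, Nkain2 and Tnp2, belong to genes with a higher level in diff. SpG, as given above. Pkmyt1, a kinase that inhibits CDK1, was at 0.596 in L/Z/eP, 2.03 in mP/lP and 1.47 in D. Tuba3b and Tuba3a, near-identical alpha-tubulin genes of the testis whose reads may be split between them, were both among the 10 furthest above D and at 8.36 and 5.58 in mP/lP, at 2.89 and 2.37 in L/Z/eP and at 3.67 and 2.45 in D. Mki67, the proliferation marker, was at 5.99 in L/Z/eP, 1.39 in mP/lP and 2.61 in D. Eml5, a microtubule protein, was at 3.47 in L/Z/eP against 0.675 in mP/lP. Of the 10 genes furthest below L/Z/eP, 5 were X-linked, namely Pet2, Atrx, Thoc2, Tex16 and Gm45194. Against D, the 10 largest lower values were all of the Ugt1a and Pcdhg clusters, whose members share exons and therefore reads. Ugt1a8 was at 0.0279 in mP/lP and 2.14 in D, and at 0.0112 in RS.

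RNA of the X chromosome was lowest in mP/lP. Its share of the RNA of all nuclear chromosomes was 2.32% in undiff. SpG, 2.07% in diff. SpG, 2.56% in pL, 2.35% in eL/L/Z, 1.63% in L/Z/eP, 0.608% in mP/lP, 1.11% in D, 1.29% in RS and 1.82% in ES. The share was thus 2.68 times lower than in L/Z/eP and 1.83 times lower than in D. The log2 ratio of shares to L/Z/eP was -1.42 for X and -1.32 for Y, whereas autosomes lay between -0.09 and 0.14. Of 496 X-linked genes tested, 0 were highest in mP/lP, where 11.2% of all genes were, although 8 of the X-linked rows below the filter on level were. 470 of the 496 were lower than in L/Z/eP, 126 (25.4%) by at least 2-fold compared with 2.82% of autosomal genes. The median log2 ratio was -0.65 for X and -0.08 for autosomes. Against D, 16 X-linked genes (3.23%) were at least 2-fold lower, compared with 5.13% of autosomal genes. The median log2 ratio to D was -0.41 for X and -0.08 for autosomes.

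Some X-linked RNA remained. Atrx, a chromatin remodeller, was at 3.28 in eL/L/Z, 2.02 in L/Z/eP, 0.410 in mP/lP, 0.985 in D and 0.556 in RS. Scml2, a polycomb protein of the germ line, was at 1.98 in L/Z/eP, 0.605 in mP/lP and 1.11 in D, and Pet2 at 5.10, 0.984 and 1.92. Ndufa1, a subunit of respiratory complex I, was at 1.29, 0.825 and 0.630 and was among the few X-linked genes above D. Most of them had a higher level in D than in mP/lP, as did 482 of the 496, whereas 40.5% of all genes were higher in mP/lP than in D. Autosomal copies of X-linked genes were compared with their parents. All 10 parent genes that passed the filter were lower in mP/lP than in L/Z/eP, as were 94.8% of all X-linked genes tested. Of 9 copies that passed, 7 were higher, where 40.8% of all genes were, such as Pdha2 (0.628 in L/Z/eP against 1.57 in mP/lP, parent Pdha1), Cetn1 (0.624 and 1.43, parent Cetn2) and Rpl10l (0.800 and 1.20, parent Rpl10). Utp14b and Rpl36al were not. Genes of the sex body were not uniform. H2afx, whose phosphorylated protein marks silenced sex chromosomes, was at 1.70 in L/Z/eP, 2.86 in mP/lP and 1.32 in D, Mdc1, which spreads the mark, at 2.85, 3.17 and 2.24, and Atm, a kinase of the early break response, at 1.16, 0.338 and 0.584.

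The scATAC-seq signal of the X chromosome did not follow its RNA. The X share of the signal was 1.55% in undiff. SpG, 1.39% in pL, 1.52% in eL/L/Z, 1.66% in L/Z/eP, 2.06% in mP/lP, 1.69% in D and 1.51% in RS, so that mP/lP had the highest share of the 10 populations where its share of RNA was lowest. The log2 ratio of shares to L/Z/eP was 0.31 for X and 0.83 for Y, and -0.05 to 0.07 for autosomes. Of 675 X-linked genes with a scATAC-seq value that passed the filter, 539 were higher than in L/Z/eP, 70 (10.4%) by at least 2-fold, compared with 0.421% of autosomal genes. The median log2 ratio was 0.32 for X and -0.01 for autosomes. Of the 10 genes with the largest ratio to the highest other population, 9 were X-linked, as were 69 of the first 100, although X-linked genes were 675 of the 22013 compared. Pet2 was at 11.7 in L/Z/eP against 22.4 in mP/lP, while its RNA + 0.1 was 4.80 times lower. Atrx was flat, at 34.4 and 31.9. The values rest on genes, and cells of 3 libraries were pooled in them.

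**Figure D5:**
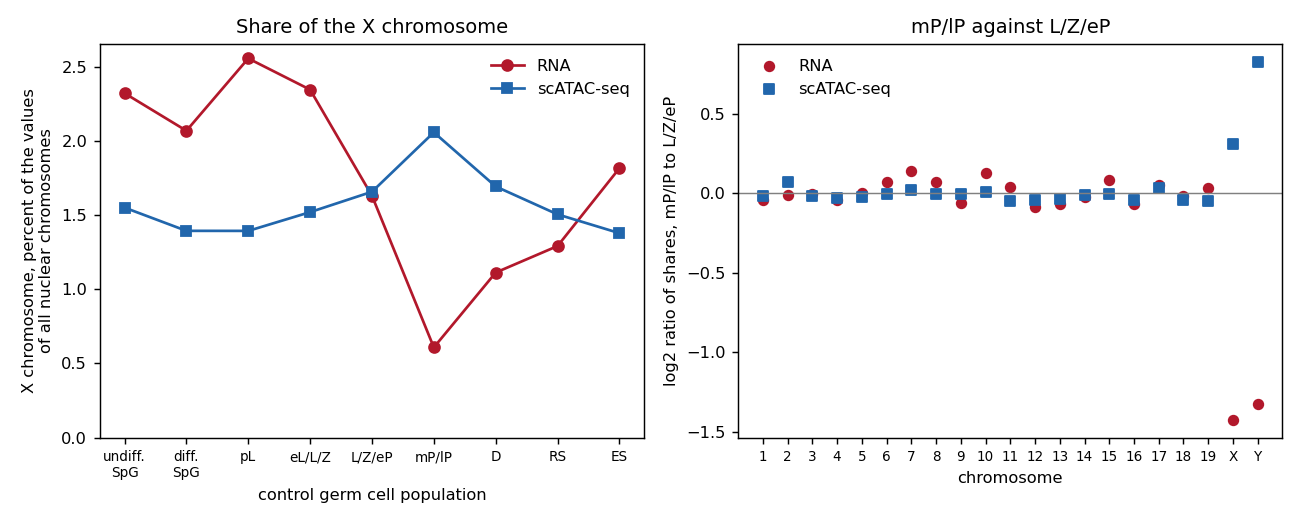
Left, share of the X chromosome in percent of the values of all nuclear chromosomes, as RNA (circles) and scATAC-seq (squares), in 9 control germ cell populations; right, log2 ratio of the share of each chromosome in mP/lP to that in L/Z/eP. In mP/lP the X share is 0.608% of RNA and 2.06% of scATAC-seq signal, and only X and Y lie far from 0.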

How the data were processed

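Nuclei of whole testes were profiled by simultaneous scRNA-seq and scATAC-seq, with 1 library per condition and assay. The members and gene lists were chosen with earlier results of these data known. Per the study's methods and processing notes, the authors aligned scRNA-seq reads with STAR 2.7.10b and scATAC-seq fragments with BWA 0.7.12 to mm10, shifted fragment ends for the transposase, kept cells with at least 500 genes and under 5% mitochondrial UMIs in Seurat 5.2.1 or at least 1000 fragments and a TSS enrichment of 4 in ArchR 1.0.3, and removed doublets (DoubletFinder for scRNA-seq, ArchR for scATAC-seq) before deposit.

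The authors deposited per cell the count of UMIs or fragments, the percent of mitochondrial UMIs, the fraction of fragments in promoters, and TSS enrichment and nucleosome signal as a ratio. Deposited gene matrices held 1 value for each of 13 populations as the natural log of 1 plus a mean, pooled over libraries, with a sum of 10000. The methods describe merging all reads or fragments of a cell type, scaled by mapped reads, which is not the scale of these matrices. How the matrices were made is otherwise not given in the sources used here, and the unit was found from the values. 12 columns of the cell tables were not used.

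Values were turned back with exp(value) - 1 in Python 3.11.15 with numpy 2.4.6, pandas 2.3.3 and scipy 1.17.1. RNA ratios used level + 0.1 for rows with a mean of at least 0.05 over the 10 control populations, and scATAC-seq ratios used value + 1 for rows with a mean of at least 5. scATAC-seq values were scaled to 1000000 without mitochondrial genes. The plan had included these genes, and the change was made after the data were seen, since they took 60.3% of the signal in mP/lP and an unequal part elsewhere (64.5% in somatic cells labelled Nfya-CKO). Differences of at least 2-fold were counted with no test, since neither cells nor genes are replicates. Genes were named by fixed rules: the markers, the 15 with the largest ratio to the highest other population, the 10 furthest from L/Z/eP or D in each direction at a level of at least 0.5, those with the highest level, and members of 20 fixed lists. Chromosomes were taken from GENCODE vM21 and promoters from RefSeq GRCm38.p6, for 11055 of 14912 rows. Functions were tested on simulated data. mP/lP depth was 48075153 UMIs in all, or a median of 6969 UMIs per cell. Alternatives covered filters on cells and genes, pseudocounts, scaling and shared barcodes. The value of 1 gene of the crossover list is not reported here.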

Additional observations from a re-analysis of the deposited data

How the results depend on the processing

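No paired analysis was possible because each condition is 1 library and the values come from no test. The directions that turned were these. Genes at least 2-fold from L/Z/eP were mostly lower, but mostly higher with median-ratio scaling (values below). The median log2 ratio minus that of all genes went from -0.07 to 0.03 for the synaptonemal list against L/Z/eP with median-ratio scaling, and from -0.02 to 0.01 for the cell cycle list against D with that scaling or a pseudocount of 0.01. With mitochondrial genes in the scATAC-seq scale, the median of the precursor loci and that of the 16 genes at least 2-fold highest in mP/lP were below D. A 4-fold limit left 0 genes, so accessibility and promoter motifs at that limit gave no value. The choices on shared barcodes, wider gene sets and identical rows were added after seeing the data.

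Shares of mP/lP cells by scRNA-seq became 2.23% at 17 dpp, 29.7% at 25 dpp and 17.4% in Cre/+ with at least 1000 genes per cell, and 20.5% at 25 dpp and 3.69% in Cre/+ without shared barcodes, which also left 67.3% with the same name in both assays. By scATAC-seq, at least 3000 fragments gave 4.72% at 17 dpp, 23.6% at 25 dpp and 49.8% in Cre/+, and a TSS enrichment of 8 gave 37.5% at 25 dpp.

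Pseudocounts of 0.01 and 0.5 gave 27 and 6 genes at least 2-fold highest in mP/lP, 501 and 60 higher and 1758 and 92 lower than L/Z/eP, and 57 and 12 higher and 2229 and 92 lower than D. Median-ratio scaling gave 34 highest, 473 higher and 290 lower than L/Z/eP, and 50 higher than D. Without a filter, 8 X-linked rows were highest in mP/lP. The median log2 ratio of X minus autosomes in RNA was -1.09, -0.20 and -0.82 against L/Z/eP with pseudocounts of 0.01 and 0.5 and with a mean of at least 0.2, in that order -0.65, -0.10 and -0.50 against D, and -1.51, -0.33 and -1.19 against undiff. SpG. In scATAC-seq it was 0.25, 0.26 and 0.22 against L/Z/eP, D and undiff. SpG when scaled with mitochondrial genes, 0.46, 0.38 and 0.43 without a filter, and 0.28 against both L/Z/eP and D with a pseudocount of 5. The median scATAC-seq log2 ratio to L/Z/eP of genes highest in mP/lP, minus that of all genes, was 0.87 for the 16 at least 2-fold highest. It fell to 0.13 when all 1665 were taken. The causes were not tested. Among results that answer a comparison 30 values stayed within the reported error or 1.5 times the count and 43 did not. Among other values 92 did and 7 did not.

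Precision is limited by 1 library per condition, by 63 cells at 17 dpp, and by pooled matrix columns that hold no spread. Levels near the pseudocount of 0.1 have compressed ratios.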

Other observations

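The names from both assays can be read as values beyond the report. In nuclei named mP/lP from RNA, the median TSS enrichment was 12.5 and the median fraction of fragments in promoters 0.194, compared with 9.86 and 0.150 in nuclei named mP/lP by scATAC-seq. At 11 dpp, where 0 scRNA-seq cells had the name, the 121 nuclei named mP/lP by scATAC-seq had a median of 7877 fragments and a TSS enrichment of 16.6, and at 8 weeks the 35 such nuclei of the library labelled Nfya-CKO had 1281 fragments and a TSS enrichment of 5.35. Of the 63 mP/lP cells at 17 dpp, all were in cluster 3, with a median of 8061 UMIs and 2524 genes.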
